A study of Junonia coenia with 38 samples.

Results

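Hindwings were compared with forewings of the buckeye butterfly Junonia coenia in the 5th, and last, larval instar. The comparison uses 6 RNA-seq libraries of the 38 in the series: 3 of forewings and 3 of hindwings, numbered 1 to 3 in each wing, and compared in pairs of the same number. The remaining 18 wing libraries, 6 each from the prepupa, from 72 h after pupation and from a late pupal stage labelled both as 6 days and as d7, helped to estimate the spread and show what became of each difference. All were of whole wings, from animals raised at about 27 degrees C, and poly-A RNA was selected. The labels name no strain, sex, genotype or treatment, nor whether the wings of 1 number came from 1 animal. So p-values of the paired fit measure how far wing ratios vary between these numbered pairs, pooled over stages. They measure no spread between known animals.

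Forewing and hindwing are serially homologous: the same kind of organ built on neighbouring thoracic segments. In the last larval instar they are still folded epithelial sheets inside the caterpillar, the imaginal discs, which grow and lay down the veins and the positions of colour pattern elements such as eyespots. In insects the Hox gene Ultrabithorax is known to be active in the hindwing and not in most of the forewing, and its loss gives hindwings forewing-like features. The deposited table identifies each gene model by a contig with a first and last position and pairs none with a gene name. So no model below has a name or a known role, the hindwing label could not be checked by Ultrabithorax, and RNA of other cells (trachea, muscle, blood cells) could not be looked for. Models are written as contig:first-last.

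The 6 larval libraries held between 8678215 and 21284939 counts. Of 19234 models, 1375 had no count in any of them, and 13282 passed the filter on low counts and were tested. Levels are given as CPM, the usual depth-scaled read count, after scaling of the libraries; they are not divided by length. In whole wings, fewer cells of a type and less RNA per cell cannot be told apart. Each larval library was most like the opposite wing of its own number. The chi-square per degree of freedom between counts was 17.0, 13.8 and 16.5 within the pairs 1, 2 and 3, and between 31.3 and 80.3 between libraries of different numbers, whether of the same wing or not. At 72 h after pupation both libraries numbered 3 stood apart: their log2 CPM correlated with those of numbers 1 and 2 of the same wing with r from 0.896 to 0.919 across models, against 0.929 and 0.944 between numbers 1 and 2. They enter the larval result through the filter, the scaling and the shared estimate of the spread. Results are given with and without them, on the same tested models.

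With pairs as blocks, edgeR's quasi-likelihood test called 131 of the 13282 models, 0.986% of those tested, at a Benjamini-Hochberg adjusted p below 0.05. Of these, 66 were higher in the hindwing and 65 were higher in the forewing, 0.497% and 0.489% of the tested models. The models higher in the hindwing had a median log2 fold change (hindwing over forewing) of 1.46, with 46 of 66 at 1 or more and 28 at 2 or more (0.527% of tested models were called with a log2 fold change of at least 1 in either direction). Those towards the forewing had a median of −0.88, with 24 of 65 at −1 or below and 8 at −2 or below. The hindwing models also stood at lower levels, with a median of their mean log2 CPM of 2.37 against 4.23 for the forewing models, and at low levels only large fold changes can pass. The sizes in the 2 directions were not tested against each other. The median over all tested models was −0.003.

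**Figure D1:**
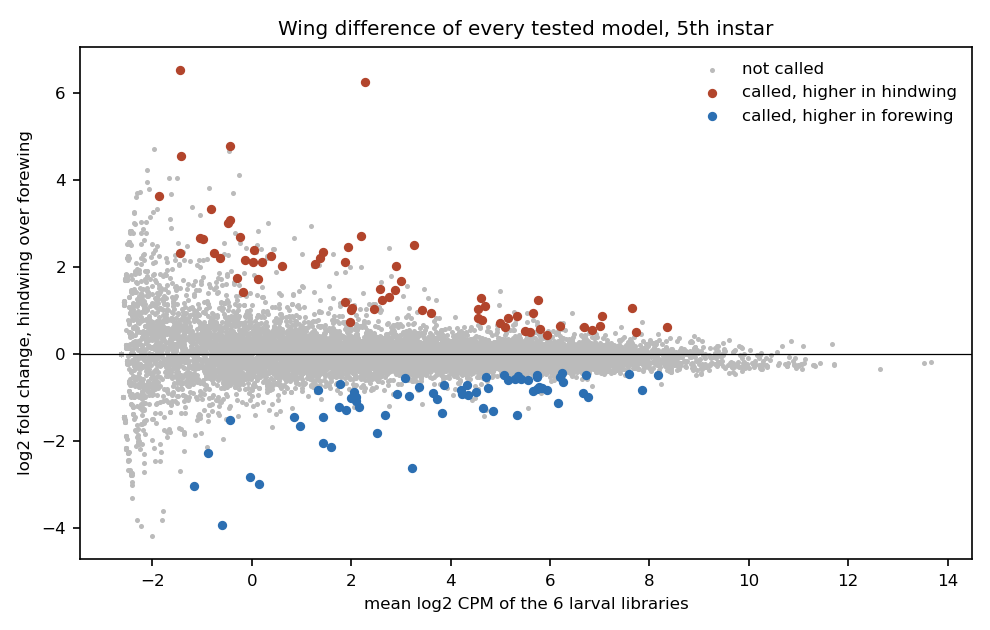
Log2 fold change of hindwing over forewing in the 5th instar (vertical axis) against the mean log2 CPM of the 6 larval libraries (horizontal axis) for all 13282 tested models, with the 66 called higher in the hindwing in red and the 65 called higher in the forewing in blue. Red points reach 6.53 and blue points −3.92, and the large differences lie at low levels.

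The count of calls depended on how the spread was estimated, so 131 is no measure of how many transcripts differ. At an unadjusted p below 0.05 the same fit had 1634 models. Without the pairing, the same 24 libraries gave 5 calls, all among the 131. With pairing and only the 6 larval libraries the count was 1223 (494 hindwing and 729 forewing models), including 118 of the 123 earlier calls that were tested there. Without both 72 h libraries numbered 3, 321 were called, including all 131. Of the 4 stages the larva had the tightest wing ratios: the median SD of the 3 log2 ratios of a model was 0.161, against 0.313 in prepupae, 0.341 in 72 h pupae and 0.227 in late pupae. The sign of a difference was also read in a pair that had not been used to find it. Of the models called without pair 1, 46 of 52 (88.5%) had the same sign in pair 1, against 48.9% of all tested models higher in the hindwing there. The share was 69 of 104 (66.3%) in pair 2 and 21 of 25 (84%) in pair 3, where 48.9% and 43.5% of all tested models were higher in the hindwing. The called sets held both directions (32, 70 and 16 higher and 20, 34 and 9 lower in the hindwing). The shares of all tested models are the background for the higher ones only.

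The 3 hindwing and 3 forewing CPM values did not overlap for 111 of the 131 called models, against 14.0% of all tested models. The hindwing was on one side in all 3 pairs for 127 of them, against 44.3% of all tested models. Since the same libraries made the calls, these counts describe the calls and lend them no weight. The called model of highest mean CPM stood at rank 264 in larval wings. The wing with less transcript was below 1 CPM for 23 of the 66 models higher in the hindwing and for 7 of the 65 higher in the forewing.

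The model that set the wings apart most clearly was 000025F:951192-952313. In forewings 1 to 3 it stood at 0.478, 0.504 and 0.431 CPM and in hindwings at 40.0, 36.6 and 34.7 CPM. All hindwings were near 1 level and all forewings near 0, a 76.9-fold difference (log2 6.26 ± 0.22 SE, edgeR adjusted p = 1.86e-08). It was also the only 1 of the 131 whose values did not overlap between the wings over all 24 libraries. The lowest of the 12 hindwings held 4.99 CPM and the highest of the 12 forewings 0.643 CPM. Its log2 fold change was 6.80 in prepupae, 6.63 in 72 h pupae and 6.25 in late pupae. The larval wing difference minus the mean of these was −0.29 ± 0.38 on the log2 scale (adjusted p = 0.806). Its hindwing level was 37.1 CPM ± 2.67 (SD, n = 3) in the larva and 7.21 CPM ± 1.65 at 72 h.

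The next largest difference towards the hindwing, among called models whose mean log2 CPM was at least 1 and whose 3 pairs had 1 sign, was that of 000477F:144180-175868. Forewings 1 to 3 held 1.57, 2.25 and 1.92 CPM, and hindwings 3.23, 13.0 and 24.8 CPM. The forewings were alike while the hindwings spanned a wide range, with hindwing 1 not far above the forewings (log2 2.72 ± 0.38, adjusted p = 0.00460). Without pair 3 the log2 fold change was 1.96 and the call ended (adjusted p = 0.103). The model 000014F:313009-330398, chosen once its values were known, had the same order of hindwings. It stood at 1.23, 1.42 and 1.46 CPM in forewings and at 0.894, 4.79 and 16.1 CPM in hindwings, so that hindwing 1 lay below every forewing (log2 2.22 ± 0.46, adjusted p = 0.0432).

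Other models of the hindwing had tighter groups. For 000052F:2184300-2201026 the forewings held 4.44, 3.71 and 3.70 CPM and the hindwings 26.0, 18.1 and 24.6 CPM, clear of each other (log2 2.53 ± 0.36, adjusted p = 0.00477). The model 000232F:434614-437944 stood in forewings at 1.64, 1.42 and 1.58 CPM and in hindwings at 11.3, 6.00 and 9.20 CPM (log2 2.46 ± 0.25, adjusted p = 0.000850). Its lowest hindwing, number 2, was still above all its forewings. Forewings held 3.62, 4.49 and 2.76 CPM of 000163F:176511-198018 and hindwings 14.9, 16.7 and 12.7 CPM (log2 2.04 ± 0.26, adjusted p = 0.00275). Those of 000209F:515569-528136 held 1.84, 1.28 and 1.90 CPM, and its hindwings 7.50, 7.90 and 6.50 CPM (log2 2.12 ± 0.27, adjusted p = 0.00275). In both models every hindwing exceeded every forewing. Without pair 3 the calls of 000052F:2184300-2201026 and 000163F:176511-198018 ended too (adjusted p = 0.0841 and 0.0610), while those of 000232F:434614-437944 and 000209F:515569-528136 held without any 1 pair.

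The remaining hindwing models of the 10 with the largest fold were 000033F:365482-370066, 000017F:446512-463138, 000001F:1725250-1728831 and 000087F:1619621-1637505, with log2 fold changes of 2.36, 2.07, 1.70 and 1.51 and adjusted p between 0.00275 and 0.0432. None of the 4 had overlapping groups. In 000001F:1725250-1728831 forewings 1 to 3 held 3.75, 9.49 and 2.27 CPM and hindwings 9.58, 25.6 and 11.5 CPM. Number 2 was highest in both wings, and the order of numbers 1 and 3 differed between the wings. The 3 called hindwing models of highest CPM differed less. The model 000125F:418638-424639 stood at 163, 124 and 130 CPM in forewings and at 272, 270 and 330 CPM in hindwings (log2 1.07 ± 0.20, adjusted p = 0.0287). The models 000197F:396006-402089 and 000108F:1063834-1077198 had log2 fold changes of 0.64 ± 0.12 and 0.51 ± 0.11 (adjusted p = 0.0287 and 0.0475), from forewing means of 264 CPM ± 30.4 and 179 CPM ± 9.18 (SD, n = 3).

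Some models called higher in the larval hindwing were nearly absent from larval forewings. The model 000029F:1833570-1858475, whose mean level lies under the limit set for naming, was picked with its values known. It stood at 0.0683, 0.0917 and 0.0574 CPM in forewings and at 2.63, 1.48 and 2.59 CPM in hindwings (log2 4.78 ± 0.50, adjusted p = 0.00145). At later stages its means were at most 0.194 CPM in forewings and 0.290 CPM in hindwings. Larval forewings of 3 further models, also picked with their values known, held 1 or 2 counts in all. Model 000094F:593701-595108 had 1 forewing and 93 hindwing counts, a ratio of rates of 104 with an exact 95% counting interval of 18.1 to 4137. Its hindwings 1 to 3 stood at 0.447, 0 and 4.63 CPM, so that pair 3 carried it and pair 2 did not show it, and its span overlaps another model. The ratio was 23.96 (interval 6.24 to 204) for 000135F:341822-350157 and 18.9 (interval 2.97 to 792) for 000004F:972675-991737. These intervals cover counting error only. Larval hindwings held little as well, with means of 0.734 CPM for 000135F:341822-350157 and 0.273 CPM for 000004F:972675-991737. Of the 43 hindwing counts of 000135F:341822-350157, 28 came from hindwing 3. Both wings held more of the 3 models later. Prepupal forewings held 33.5 CPM ± 41.4 (SD, n = 3) of 000094F:593701-595108 and prepupal hindwings 15.4 CPM ± 9.65. Of 000135F:341822-350157 they held 332 CPM ± 451 and 138 CPM ± 144. The 72 h means of 000004F:972675-991737 were 158 CPM ± 149 in forewings and 189 CPM ± 151 in hindwings (edgeR adjusted p = 0.276). The prepupal call of 000135F:341822-350157 was towards the forewing (log2 −0.75, edgeR adjusted p = 0.0223).

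**Figure D2:**
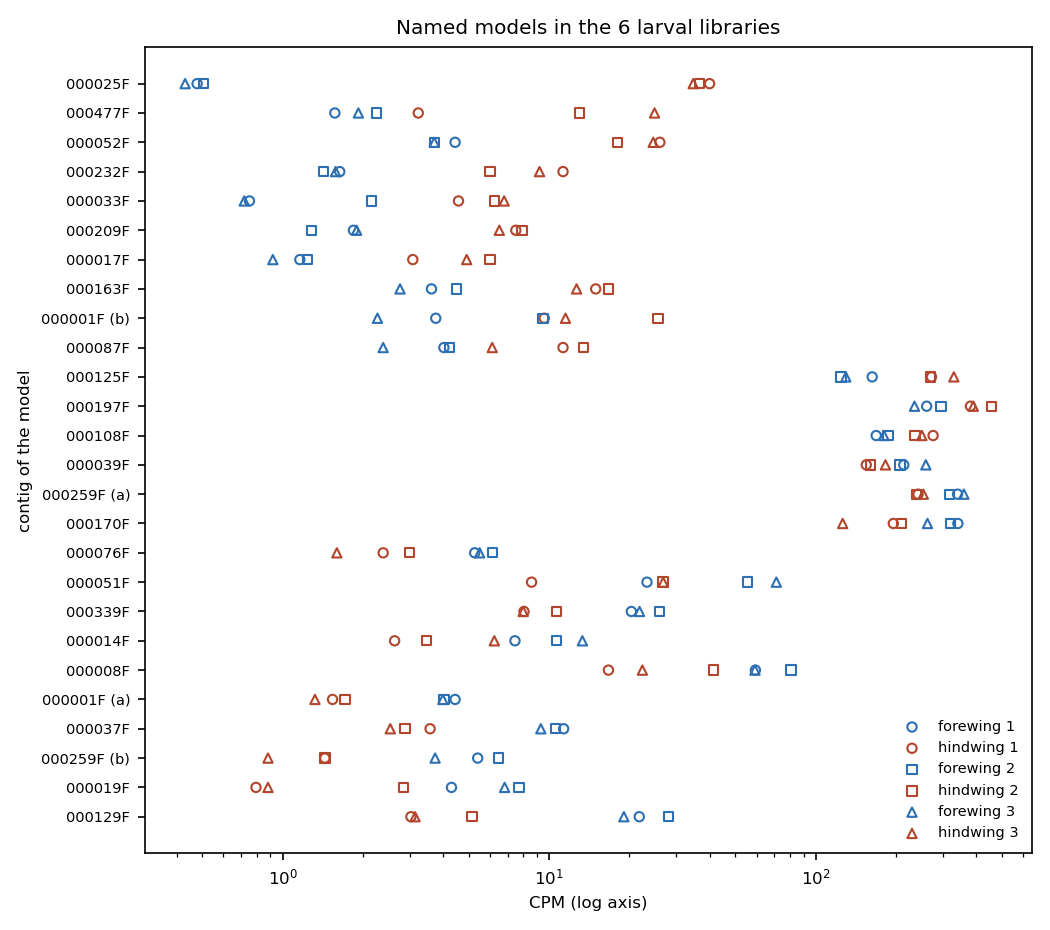
CPM (log axis) in each of the 6 larval libraries for the 26 models named by rule, ordered by log2 fold change; blue marks are forewings, red marks hindwings, and circle, square and triangle are numbers 1, 2 and 3. Rows carry the contig of the model, and where a contig holds 2 of the models, (a) lies nearer its start. The wings overlap only in the row of 000051F.

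In the other direction the largest difference among models at a mean log2 CPM of 1 or more was that of 000129F:89294-91831. Forewings 1 to 3 held 21.8, 28.1 and 19.1 CPM and hindwings 3.03, 5.14 and 3.14 CPM. Number 2 was highest in both wings, and the groups stayed well apart (log2 −2.62 ± 0.22, adjusted p = 0.000242). The model 000037F:2356736-2361176 stood at 11.3, 10.6 and 9.30 CPM in forewings and at 3.58, 2.88 and 2.53 CPM in hindwings (log2 −1.80 ± 0.17, adjusted p = 0.000653). Forewings held 4.44, 4.03 and 3.99 CPM of 000001F:234692-243615 and hindwings 1.54, 1.71 and 1.32 CPM (log2 −1.43 ± 0.13, adjusted p = 0.000292). It was 1 of 20 models, with 000129F:89294-91831 and 000037F:2356736-2361176 among them, that stayed called whichever pair was left out.

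Levels of other forewing models moved with the number. The model 000051F:659222-670214 stood at 23.3, 55.5 and 71.2 CPM in forewings and at 8.59, 26.8 and 26.8 CPM in hindwings (log2 −1.29 ± 0.17, adjusted p = 0.00299). Forewing 1 lay below hindwings 2 and 3, and the forewing exceeded the hindwing in each pair. Forewings held 59.4, 80.8 and 59.2 CPM of 000008F:3321793-3326117 and hindwings 16.7, 41.5 and 22.4 CPM, with number 2 highest in both wings (log2 −1.39 ± 0.21, adjusted p = 0.00846). The model 000019F:1933812-1934486, whose span overlaps another model, had 4.30, 7.70 and 6.81 CPM in forewings and 0.795, 2.84 and 0.882 CPM in hindwings (log2 −2.13 ± 0.44, adjusted p = 0.0420). It lost its call whichever pair was left out (adjusted p = 0.195, 0.0567 and 0.391 without pairs 1, 2 and 3), and its log2 fold change was −2.71 without pair 2.

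The 4 further models among the 10 with the largest fold towards the forewing were 000259F:296788-301306, 000014F:1440687-1447394, 000339F:142246-150271 and 000076F:1109583-1120764. Their log2 fold changes were −2.05, −1.39, −1.36 and −1.29, with adjusted p between 0.00317 and 0.0377 and no overlap of the groups. The called forewing models of highest CPM differed by less. The model 000170F:98289-101158 stood at 342, 321 and 263 CPM in forewings and at 196, 210 and 126 CPM in hindwings (log2 −0.83 ± 0.13, adjusted p = 0.00998). In 000259F:76284-89122 the forewings held 341, 318 and 360 CPM and the hindwings 242, 239 and 253 CPM, a log2 fold change of −0.47 ± 0.09 (adjusted p = 0.0412). The model 000039F:810569-813053, whose span overlaps another, was at −0.44 ± 0.09 (adjusted p = 0.0475).

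Pairs of the same number could share a level that differed widely from the other pairs while the wing ratio stayed the same. The case with the widest range, picked with its values known, was 000206F:87233-108065, whose span overlaps another model. Its forewings 1 to 3 held 33.8, 35.9 and 4.34 CPM and its hindwings 61.9, 66.0 and 7.44 CPM. Pair 3 was low in both wings, so the groups overlapped, and the 3 log2 ratios had an SD of 0.0666 (log2 0.85 ± 0.11, adjusted p = 0.00275). In 000085F:183223-195690, chosen likewise, pair 2 was high: 25.2, 90.8 and 28.3 CPM in forewings and 37.6, 127 and 39.3 CPM in hindwings (log2 0.51 ± 0.09, adjusted p = 0.0171). Levels spread by more than 1 on the log2 scale in both wings for 15 of the 131 models, and by more than 2 for 3. These counts ask nothing of the wing ratios and were not made over all tested models. In 000160F:1129649-1134874, picked with its values known, both wings spread by more than 1 and the 3 log2 ratios had an SD of 1.51.

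**Figure D3:**
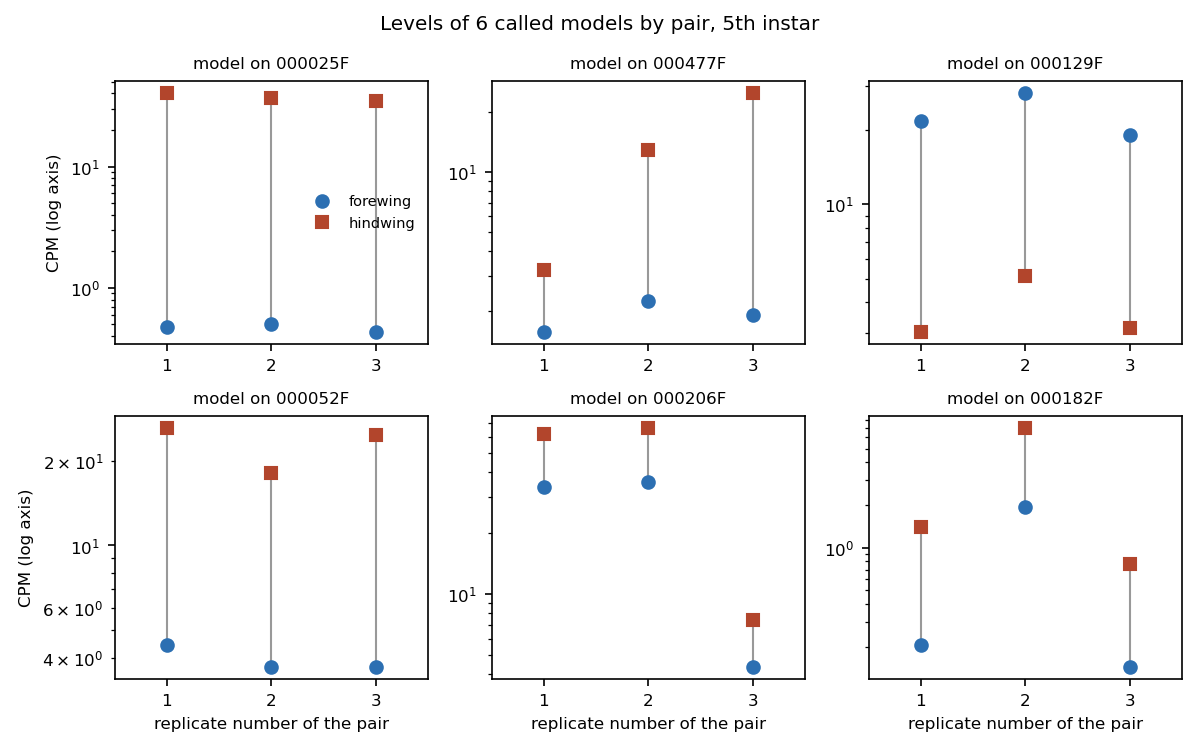
CPM (log axis, its range set for each panel) of 6 called models in the pairs 1, 2 and 3 of larval wings, with forewings as blue circles, hindwings as red squares and a line joining each pair. The gap is alike in the 3 pairs of the models on 000025F and 000206F, although pair 3 of the latter lies far below the others, whereas hindwings of the model on 000477F range from 3.23 to 24.8 CPM.

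Called models lay on 91 of 689 contigs, and 27 contigs held 2 or more. In 7 cases 2 called models were direct neighbours among the tested models, and in all 7 both differed in the same direction. Of the 244 places next to a called model, 14 (5.74%) were taken by another called model, against 0.986% of all tested models. Whether neighbours are parts of 1 gene cannot be told from the table. Neighbouring pairs were picked with their values known. How often neighbours share a direction over all tested models was not counted.

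On 000300F the models 000300F:487101-497201 and 000300F:502757-508788, separated by 5555 bases, were both higher in forewings. The first stood at 18.7, 18.1 and 19.2 CPM in forewings and 9.19, 10.3 and 8.04 CPM in hindwings (log2 −1.03 ± 0.16, adjusted p = 0.0100). The second had 139, 137 and 135 CPM in forewings and 74.3, 82.7 and 66.0 CPM in hindwings (log2 −0.89 ± 0.12, adjusted p = 0.00383). Both pairs of groups were narrow and far apart. On 000182F, 000182F:122899-133955 and 000182F:137211-144548 were higher in hindwings (log2 2.23 and 2.12), and both were highest in pair 2. The latter stood at 0.205, 1.92 and 0.144 CPM in forewings and at 1.39, 6.97 and 0.771 CPM in hindwings, so that forewing 2 exceeded hindwings 1 and 3 and the groups overlapped.

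The other neighbours were on 000243F (log2 2.41 and 2.33), 000014F (2.22 and 2.65), 000045F (0.87 and 0.95), 000022F (0.63 and 0.59) and 000050F (−0.51 and −0.51). On 000014F the neighbour of 000014F:313009-330398, 000014F:337937-344249, had its highest level in hindwing 3 as well, at 1.65 CPM against 0.348 and 0.701 CPM in hindwings 1 and 2. The models of each neighbouring pair had similar fold changes at levels that could differ widely, for instance 13.9 and 105.6 CPM over the larval wings on 000300F. Both models had to be called to form a pair, so this similarity is a description of the calls.

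The larval calls were next followed into the later stages. The later libraries shared the filter and the estimate of spread with the larval ones in the fit that made the calls, so the shares called again are no independent check: a model with a low estimated spread is called more easily at every stage. In the prepupa, where 30.9% of all tested models were called between the wings, 27 of the 66 hindwing models (40.9%) were called again in the same direction, against 14.6% of all tested models higher in the prepupal hindwing. Of the 65 forewing models, 39 (60%) were called again in the forewing direction, against 16.3% of all tested models. The opposite direction was called for 6 (9.09%) and 13 (20%) of them, against 16.3% and 14.6% of all tested models called in those directions. Median log2 fold changes in the prepupa were 0.65 for the hindwing and −0.76 for the forewing models, against 0.04 for all tested models. Across the 131 models, larval and prepupal log2 fold changes had a Pearson r of 0.522 and a Spearman rho of 0.557, against 0.0831 and 0.0533 across all 13282. The 131 were selected on their larval differences, so their correlations and those across all models are not like for like. The Pearson r includes 000025F:951192-952313, at 6.26 in the larva and 6.80 in the prepupa. Models are not independent replicates, all values share the scaling, and the models of a pair of neighbours may share reads.

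**Figure D4:**
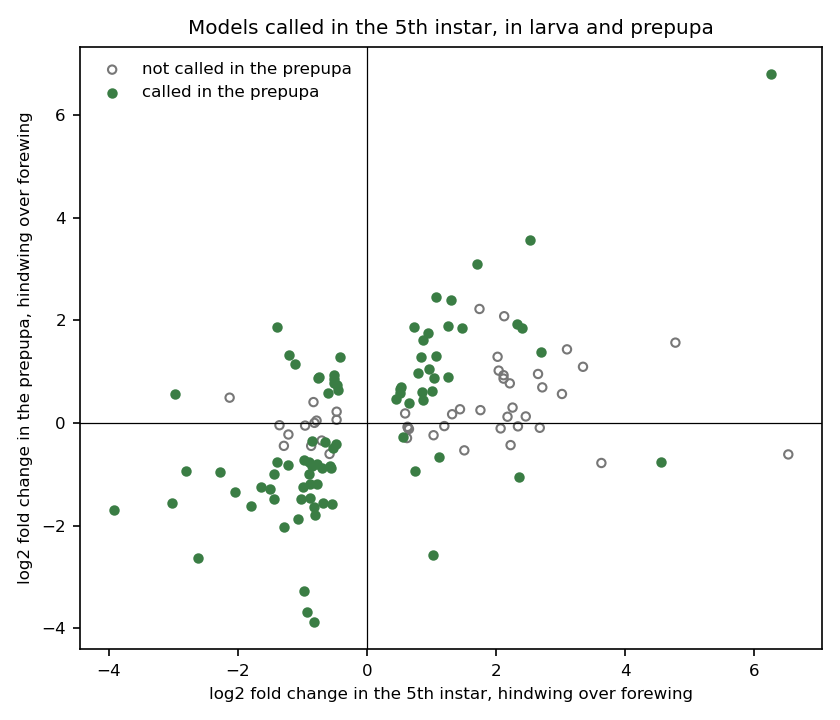
Log2 fold change of hindwing over forewing in the prepupa (vertical axis) against that in the 5th instar (horizontal axis) for the 131 models called in the 5th instar; filled green points were also called in the prepupa. Filled points lie mostly in the quadrants of equal sign, with 27 at the upper right and 39 at the lower left, while 6 and 13 lie in the other quadrants.

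After pupation fewer of them were called again, at stages where 2.70% (72 h) and 0.459% (late pupa) of all tested models were called. At 72 h 5 hindwing models (7.58%) and 3 forewing models (4.62%) were called in the same direction, against 1.54% and 1.15% of all tested models, and 1 and 2 in the opposite one. In the late pupa the counts were 1 (1.52%) and 3 (4.62%), against 0.188% and 0.271%, with 2 and 1 opposite. In all, 70 of the 131 were called in the same direction at 1 or more later stages, 25 in the opposite direction at 1 or more, and 40 in neither direction at any. The later calls were mostly prepupal, at a stage where 30.9% of all tested models were called. Shares of all tested models were not counted for these totals, so whether they are unusual cannot be told. Only 000025F:951192-952313 was called at all 3 later stages in its larval direction.

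Some larval hindwing models had larger fold changes in the prepupa. Forewings held 5.17 CPM ± 3.81 (SD, n = 3) of 000001F:1725250-1728831 in larvae and 259 CPM ± 72.9 in prepupae, and hindwings held 15.6 CPM ± 8.73 and 2268 CPM ± 909. Its log2 fold change was 1.70 in the larva and 3.09 ± 0.31 in the prepupa (adjusted p = 1.14e-05). For 000125F:418638-424639 the prepupal forewings held 150 CPM ± 68.7 and hindwings 784 CPM ± 124 (log2 2.46 ± 0.21, adjusted p = 3.57e-06). The model 000052F:2184300-2201026 reached a log2 fold change of 3.57 ± 0.44 (adjusted p = 6.16e-05). For none of these 3 did the larval wing difference differ from the mean of the later stages by the test of that difference (adjusted p = 0.570, 0.357 and 0.300). That mean also holds the 72 h and late pupal stages, where 000001F:1725250-1728831 had log2 fold changes of 0.91 and −0.52. The larval and prepupal differences were not tested against each other. Levels were not tested between stages.

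On the forewing side 000129F:89294-91831 was called in the prepupa too, where forewings held 106 CPM ± 22.1 and hindwings 17.9 CPM ± 8.33 (log2 −2.64 ± 0.21, adjusted p = 1.67e-06). Its later log2 fold changes were −0.14 (72 h, adjusted p = 0.822) and −0.35 (late pupa, adjusted p = 0.793). The model 000001F:234692-243615 was called towards the forewing in the prepupa and at 72 h (log2 −0.99 and −0.82), and 000259F:296788-301306 in the prepupa and the late pupa (log2 −1.34 and −2.18). The models 000037F:2356736-2361176, 000051F:659222-670214, 000014F:1440687-1447394 and 000170F:98289-101158 were called towards the forewing in the prepupa too, with log2 fold changes of −1.62, −2.02, −0.76 and −1.63.

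Other differences turned. The model 000008F:3321793-3326117 was higher in larval forewings (66.5 CPM ± 12.4 against 26.8 CPM ± 13.0) and higher in prepupal hindwings, at 5048 CPM ± 1066 against 1402 CPM ± 462 in prepupal forewings (log2 1.88 ± 0.21, adjusted p = 3.06e-05). The model 000033F:365482-370066 was higher in larval hindwings (5.86 CPM ± 1.15 against 1.21 CPM ± 0.820) and lower in prepupal ones, which held 214 CPM ± 16.5 when prepupal forewings held 447 CPM ± 85.2 (log2 −1.05 ± 0.21, adjusted p = 0.00225). The model 000084F:1150671-1184045, picked with its values known and with a span that overlaps another, went from 1.03 ± 0.21 to −2.57 ± 0.21 on the log2 scale (adjusted p = 2.89e-06 in the prepupa). The neighbours 000050F:431218-434177 and 000050F:439864-443596 turned together, from −0.51 each to 0.86 ± 0.12 and 0.79 ± 0.10; the span of the second overlaps another model.

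The test of the larval wing difference against the mean of the 3 later stages called 290 of 13282 models, 2.18%, among them 59 of the 131 (32 hindwing and 27 forewing models). The larval values that made the calls enter this test too, so that share is a description. Of the 59, 23 were called in the opposite direction at a later stage and 22 at no later stage, with no share counted over all tested models. Among the latter was 000232F:434614-437944, with larval means of 8.82 CPM ± 2.66 in hindwings and 1.55 CPM ± 0.113 in forewings. Its level was 131 CPM in hindwings and 216 CPM in forewings at 72 h, with a log2 fold change of −0.73 (adjusted p = 0.0633). The wing difference in the larva exceeded the mean of the later stages by 2.66 ± 0.42 on the log2 scale (adjusted p = 0.0136). For 000163F:176511-198018 and 000209F:515569-528136 the excess was 2.28 ± 0.42 and 2.29 ± 0.40 (adjusted p = 0.0241 and 0.0200). Both rest partly on late pupal log2 fold changes of −1.62 and −1.74, at hindwing means of 0.192 and 0.172 CPM. In each, 1 late hindwing had no count. Their log2 fold changes were 1.02 and 0.93 in the prepupa (edgeR adjusted p = 0.0775 and 0.160) and −0.10 and 0.30 at 72 h. Without the pairing the test of the larva against the later stages called 0 models by edgeR, with 563 at an unadjusted p below 0.05. The DESeq2 Wald test with the pairing called 632. The edgeR test called 47, 41 and 11 without larval pairs 1, 2 and 3, and 677 without both 72 h libraries numbered 3.

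**Figure D5:**
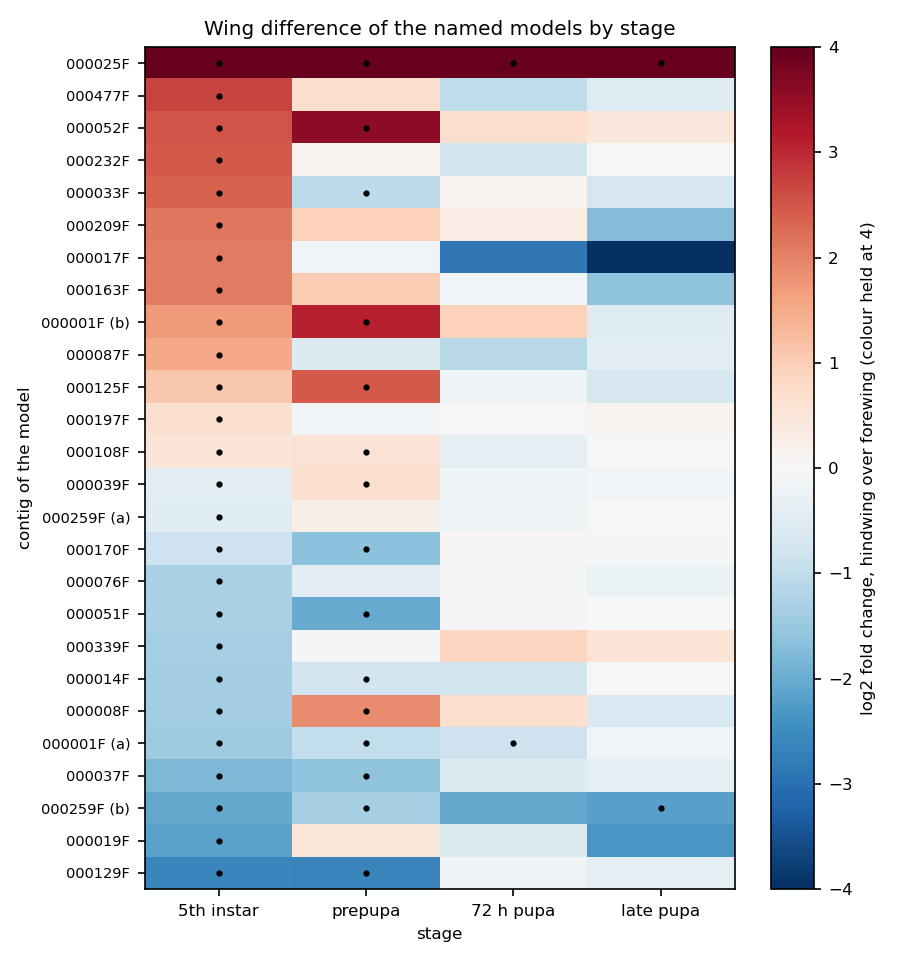
Log2 fold change of hindwing over forewing (colour, held at 4) at each of the 4 stages for the 26 models named by rule, with a dot where the model was called; rows carry the contig, and (a) lies nearer the start of a contig with 2 models. The top row, 000025F, is called at all 4 stages; 000008F, 000033F and 000039F have dots of opposite colour in larva and prepupa.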

How the data were processed

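The authors deposited a table of raw counts of reads in each gene model, not normalized, for 24 wing libraries. TopHat, bedtools and DESeq2 are named in the submitters' processing notes, with no role. Genome build, annotation and strand setting: not given in the sources used here. Columns headed d3 were taken as the 72 h libraries. Models with low counts were removed with filterByExpr (minimum count 10, minimum total 15). Libraries were scaled with TMM factors (1.64 to 1.80 in larval libraries). The factors were 0.557 to 0.612 in prepupal forewings, 0.792 to 0.979 in prepupal hindwings and 0.717 to 1.07 after pupation. Levels set side by side between stages, and prepupal wing ratios, rest on this scaling. All 24 libraries entered 1 quasi-likelihood fit in edgeR 4.0.16 under R 4.3.3 (glmQLFit, glmQLFTest) with 12 blocks of stage by number and a wing effect per stage, leaving 8 residual degrees of freedom. Standard errors were taken from the fold change on the log2 scale and its F statistic. The fit was tested on simulated data. DESeq2 1.42.0 served as an alternative test.

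The replicate numbers come from the labels. Deviations from group means correlated across models between wings of the same number and stage in all 12 pairs (r from 0.517 to 0.765, in the larva from 0.602 to 0.765), and at most −0.138 between different numbers. Deviations within a group cancel out, so positive correlations within numbers bring negative ones between numbers. The latter add nothing, and the former are taken as pairing. Models named by rule are called models with a mean larval log2 CPM of 1 or more and 1 sign in all 3 pairs: the 10 largest log2 fold changes and the 3 highest CPM in each direction, and any called at all stages in 1 direction, 26 in all. The comparison and the lists were chosen with earlier results of these data known. Spans overlap for 2605 of the 13282 tested models, and reads there may be divided or counted for both. The 14 libraries tied to annotation were not analysed here.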

Additional observations from a re-analysis of the deposited data

Results flagged for a closer look

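For 16 of the 26 models named by rule, the wing difference of the 5th instar departed from the mean wing difference of the 3 later stages by the edgeR test of that difference (adjusted p below 0.05). Values are the larval difference minus the later mean, on the log2 scale, hindwing over forewing. Among hindwing models they were 4.83 for 000017F:446512-463138, 3.0 for 000477F:144180-175868, 2.91 for 000033F:365482-370066, 2.66 for 000232F:434614-437944, 2.29 for 000209F:515569-528136, 2.28 for 000163F:176511-198018, 2.20 for 000087F:1619621-1637505 and 0.63 for 000197F:396006-402089. The first rests partly on late hindwings without a count, so its size depends on the prior count. Those for 000209F:515569-528136 and 000163F:176511-198018 rest partly on late hindwing means of 0.172 and 0.192 CPM, with 1 late hindwing of each without a count. Among forewing models they were −2.05 for 000008F:3321793-3326117, −1.81 for 000339F:142246-150271, −1.57 for 000129F:89294-91831, −1.04 for 000076F:1109583-1120764, −0.96 for 000037F:2356736-2361176, −0.79 for 000001F:234692-243615, −0.57 for 000039F:810569-813053 and −0.48 for 000259F:76284-89122. The adjusted p lay between 0.00449 and 0.0451.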

How the results depend on the processing

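Scaling by DESeq2 size factors, other filters on low counts and leaving out overlapping models kept each count within 1.5 times (124 to 169 larval calls). In the fit without the replicate block 5 larval models were called (3 higher, 2 lower in the hindwing), 3 of them again later, and 0 for the difference from later stages. The 6 larval libraries alone gave 1223 (494 higher, 729 lower) with the replicate block and 1 (1 higher, 0 lower; 1037 at an unadjusted p below 0.05) without it. The DESeq2 Wald test called 374 (128 higher, 246 lower; 34.2% higher in place of 50.4%), 197 again later and 632 for the difference from later stages, and gave no adjusted p for 5150 models. Without both 72 h libraries numbered 3, an alternative added after the data were seen, the counts were 321 (152 and 169), 173 and 677. Leaving out 1 larval pair gave 25 to 104 calls (16 to 70 higher, 9 to 34 lower), 14 to 47 again later and 11 to 47 for the difference, with the lowest counts without pair 3. The cause was not tested. Fewer pairs leave fewer degrees of freedom.

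No sign changed among those of the 131 models that an alternative fitted; an adjusted p was given for 106 in the DESeq2 Wald test, 118 without overlapping spans, 120 with the stricter filter, 123 with the larval libraries alone and all 131 in the others. Of the 26 named models, 22 lost their call without the replicate block, 12, 11 and 19 without pairs 1, 2 and 3, and 3 with no filter; 7 stayed called whichever pair was left out. Depth limits models below 1 CPM, where a few counts set the ratio.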
